A study of Mus musculus with 4 samples.

Results

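The peaks described here were called in ChIP library 1 and share no base with any peak of ChIP library 2, on chromosomes 1 to 19. They number 18017 of the 41453 library 1 peaks on these chromosomes, or 43.5% (Wilson 95% interval 43.0 to 43.9%). They are called library 1 only peaks below. The choice rests on the peak calls of both libraries, so the strength of these peaks is given as a description. With 1 library on each side of the rule, no comparison in the text could be tested against replicate error, and intervals cover counting error over peaks, promoters or genes only.

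The study used ChIP-seq to map STAT3 phosphorylated at tyrosine 705 in oligodendrocyte progenitor cells, taken as primary cells from the cortex of C57BL/6 mice. All cells were kept in PDGF-AA at 10 ng/ml and bFGF at 20 ng/ml and received CNTF at 100 ng/ml for 15 min, so the series holds no group without CNTF. It has 2 ChIP libraries, each from an aliquot of equal cell number, and 2 input libraries, which were not analysed here. Lysed cells were pooled before the precipitations and no label names separate cultures, so differences between the libraries may be technical.

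STAT3 is a transcription factor that waits in the cytoplasm. Cytokines of the CNTF family act through gp130 and JAK kinases, which phosphorylate STAT3 on a tyrosine, and the dimer then binds DNA at palindromes of the form TTCNNNGAA. Oligodendrocyte progenitors are dividing glial cells from which the myelinating oligodendrocytes come, and CNTF also drives astrocyte genes in related progenitors through STAT3. A peak caller reports each place where precipitated fragments pile up above the local background, and the weakest calls are those most easily missed in a library of lower depth.

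The deposited lists held 42189 and 26649 peaks, and the table of regions reproducible between the libraries (irreproducible discovery rate, IDR, up to 0.05) held 12925. The lowest local background was 4.72 fragments in library 1 and 2.91 in library 2, a ratio of 1.62, and no other measure of depth was used. The lists hold no expression values, so the labelled cell type could not be checked against its markers. Library 1 only peaks are set beside 3 other classes below: 12785 library 1 peaks with a library 2 partner in a reproducible region, 10651 with a partner outside the regions, and 2015 peaks of library 2 that touch no library 1 peak (7.72% of its peaks on these chromosomes).

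Promoters with a library 1 only summit illustrate the kind of sequence involved. The 3 strongest such peaks in a promoter with a TTCNNNGAA match upstream of the start are shown first, with that match in capitals. They lie at Agt, which encodes angiotensinogen, at Zfp708, a zinc finger gene, and at Rbm5, which encodes an RNA-binding splicing factor. Each line gives the 250 bases before the start, 5′ to 3′ on the gene's strand, from RefSeq on GRCm38.p6.
Agt: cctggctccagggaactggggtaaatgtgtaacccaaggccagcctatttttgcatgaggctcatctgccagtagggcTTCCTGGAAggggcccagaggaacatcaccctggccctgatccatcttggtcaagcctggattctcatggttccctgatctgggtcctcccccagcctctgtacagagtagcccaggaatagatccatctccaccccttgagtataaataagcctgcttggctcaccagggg
Zfp708: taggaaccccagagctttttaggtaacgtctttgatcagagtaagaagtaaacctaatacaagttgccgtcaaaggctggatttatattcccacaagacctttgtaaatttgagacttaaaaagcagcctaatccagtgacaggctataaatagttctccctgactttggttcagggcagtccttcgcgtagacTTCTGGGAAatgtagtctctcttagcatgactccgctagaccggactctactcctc
Rbm5: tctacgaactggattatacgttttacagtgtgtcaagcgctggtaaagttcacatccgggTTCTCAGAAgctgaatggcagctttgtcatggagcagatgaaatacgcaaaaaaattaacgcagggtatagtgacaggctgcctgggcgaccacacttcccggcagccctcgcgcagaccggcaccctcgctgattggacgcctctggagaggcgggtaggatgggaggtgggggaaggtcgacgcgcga
The Agt stretch is chr8:124569707-124569956 on the minus strand. Its match begins 172 bp upstream of the start, and the summit lies 185 bp upstream, with a pileup of 39 fragments and a 6.998-fold enrichment. The Zfp708 stretch is chr13:67081546-67081795, minus strand, with the match 56 bp and the summit 19 bp upstream, at 6.65-fold. The Rbm5 stretch is chr9:107771003-107771252, minus strand, with the match 190 bp and the summit 117 bp upstream, at 6.56-fold.

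The 3 strongest library 1 only summits upstream of a start with no TTCNNNGAA match in the promoter window are shown next, with the GC box GGGCGG in capitals wherever it stands on either strand. They lie at Trmt44, a tRNA methyltransferase gene, at Nup155, which encodes a nuclear pore protein, and at Pcnp.
Trmt44: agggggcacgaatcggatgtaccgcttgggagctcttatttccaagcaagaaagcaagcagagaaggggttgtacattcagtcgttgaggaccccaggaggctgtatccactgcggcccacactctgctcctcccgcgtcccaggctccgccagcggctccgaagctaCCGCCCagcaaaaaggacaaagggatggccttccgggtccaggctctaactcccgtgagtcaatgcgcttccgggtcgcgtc
Nup155: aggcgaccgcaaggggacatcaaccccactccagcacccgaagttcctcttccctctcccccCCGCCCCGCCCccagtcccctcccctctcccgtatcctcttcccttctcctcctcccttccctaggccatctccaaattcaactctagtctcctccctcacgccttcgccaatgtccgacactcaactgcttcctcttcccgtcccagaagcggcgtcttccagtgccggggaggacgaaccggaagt
Pcnp: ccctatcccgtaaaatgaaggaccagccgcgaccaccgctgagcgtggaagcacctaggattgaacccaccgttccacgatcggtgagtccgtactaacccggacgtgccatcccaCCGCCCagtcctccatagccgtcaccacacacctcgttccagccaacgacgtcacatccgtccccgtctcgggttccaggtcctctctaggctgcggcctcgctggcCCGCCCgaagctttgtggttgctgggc
The Trmt44 stretch is chr5:35575071-35575320, minus strand. Its summit lies 19 bp upstream of the start, with a pileup of 52 fragments and a 9.27-fold enrichment. The Nup155 stretch is chr15:8109063-8109312, plus strand, with the summit 35 bp upstream at 8.05-fold. The Pcnp stretch is chr16:56029718-56029967, minus strand, with the summit 27 bp upstream at 7.43-fold. All 3 stretches lie in windows of high GC content, between 62.0% and 65.3%, against 54.7% at Agt, 43.7% at Zfp708 and 56.3% at Rbm5.

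Library 1 only peaks were narrow and low. Their median width was 225 bp, with the middle range of peaks (the 25th to the 75th percentile) from 187 to 286 bp and extremes of 163 and 1309 bp. The median pileup at the summit was 22 fragments, with a middle range of 19 to 27, and the median fold enrichment over local background was 3.67, with a middle range of 3.14 to 4.25. The median −log10 q was 5.44, and 1021 of the peaks (5.67%) had a value under 2.

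The other library 1 classes were wider and higher. Partnered peaks outside the regions had a median width of 310 bp, a median pileup of 30 fragments and a median enrichment of 4.72-fold. Partnered peaks in a reproducible region had medians of 502 bp, 68 fragments and 10.4-fold. Of the library 1 only peaks, 14.9% reached a pileup of 30 fragments, against 51.9% of partnered peaks outside the regions and 98.7% of those inside. At the lower end, 1236 library 1 only peaks (6.86%) had the smallest width found in the list, 163 bp, against 1.13% and 0.0626% of the partnered classes.

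**Figure D1:**
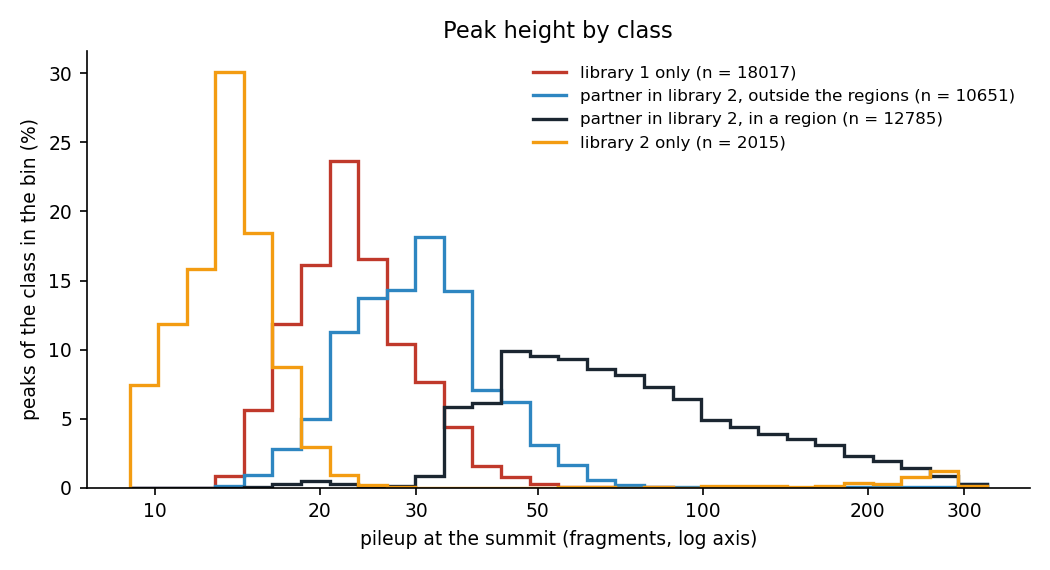
Distribution of the pileup at the summit (fragments, log axis) as a percentage of the peaks of each class. Library 1 only peaks (red, median 22) lie below partnered peaks outside the regions (blue, median 30) and those in a region (black, median 68); library 2 only peaks (orange, median 13) come from the library of lower background.

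Peaks called in library 2 alone had a median pileup of 13 fragments, a median width of 180 bp and a median enrichment of 3.33-fold. Divided by the ratio of the lowest backgrounds, the median pileup of library 1 only peaks comes to 13.6 fragments. The pileups of the 2 libraries are on different scales, whereas fold enrichment is relative to each library's own background.

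The share of library 1 peaks without a partner went down with peak height. It was 91.0% at a pileup of 13 to 16 fragments, 84.5% at 17 to 20, 74.3% at 21 to 25 and 55.3% at 26 to 30. It was 29.1% at 31 to 40 fragments, 5.81% at 41 to 60 and 0.451% at 61 to 100. Above 100 fragments, 6 of 3419 peaks had no partner. Library 1 only peaks thus lay mostly at low pileups. Of the 18017, 2680 (14.9%) had a pileup of 30 or more, 432 (2.40%) of 40 or more and 25 over 60.

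Fold enrichment gave the same order except at its lowest end. The share without a partner was 86.9% between 2-fold and 3-fold, 76.9% between 3-fold and 4-fold, 56.8% between 4-fold and 5-fold and 30.2% between 5-fold and 6-fold. From 8-fold to 10-fold it was 1.35%, or 37 peaks, and of 6795 peaks at 10-fold or more, 2 had no partner. Under 2-fold, 36 of 90 peaks had none (40%, 95% interval 30.5 to 50.3%), a lower share than in the next bin.

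**Figure D2:**
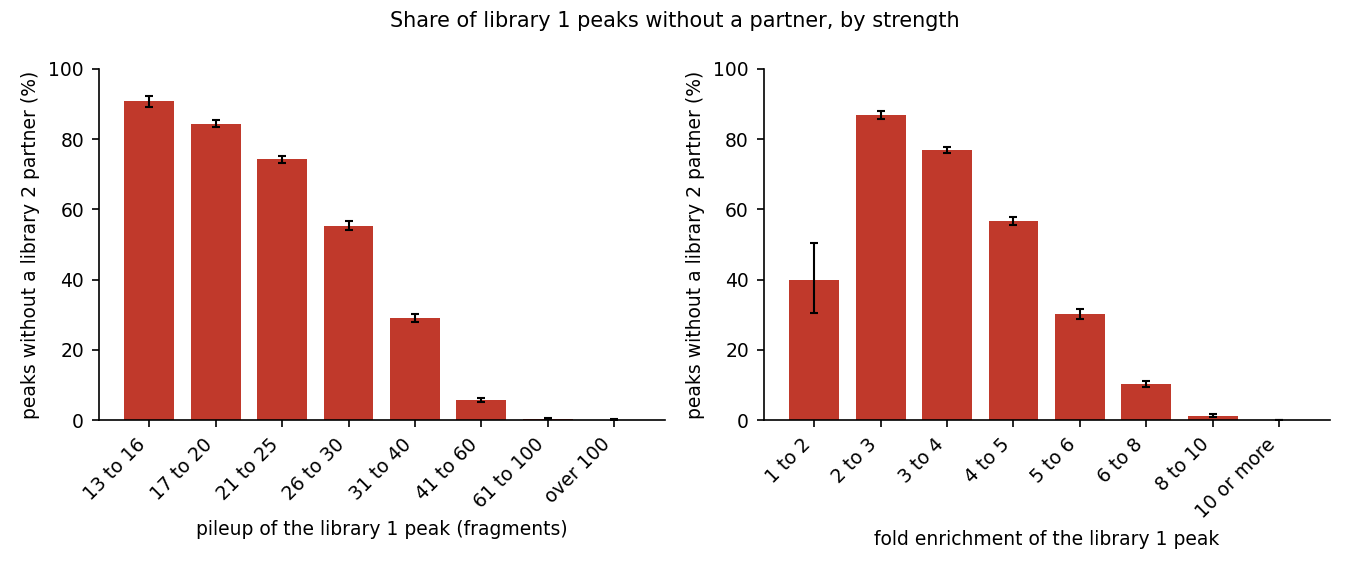
Percentage of library 1 peaks without a library 2 partner, by pileup (left, fragments) and by fold enrichment (right), with Wilson 95% intervals. The bars go down from 91.0% to under 1% with pileup and from 86.9% to under 1% with fold, apart from the first fold bin at 40%.

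Values that bear on depth are these. Each library 1 only peak's pileup and background were divided by 1.62 and its Poisson −log10 p was computed again. The median was 4.93, and 16502 of the peaks (91.6%) came to 3.04 or more, the lowest −log10 p of the library 2 list. The recalculation adds no sampling variation and takes peaks chosen for a call in library 1. It therefore does not show how many would be called at lower depth. The library 2 peaks that did overlap library 1 peaks outside the regions had a median −log10 p of 7.09. In overlapping pairs the library 2 pileup was a median of 0.543 times the library 1 pileup outside the regions and 0.500 times inside them. Of library 1 peaks with a pileup of 19 to 27 fragments, the middle range of the library 1 only peaks, 26.1% had a partner, and those partners had a median of 15 fragments and 3.76-fold enrichment in library 2. The part of depth in the missing partners was not tested. Cut to the 26109 strongest peaks by −log10 p, the size of the library 2 list, library 1 kept 5727 peaks without a partner, 21.9% of the cut list.

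The rule counts a single shared base as a partner. For the 5 peaks nearest the rule on each side, pileups overlapped, at 18 to 24 fragments without a partner and 16 to 22 with one. Their folds did not overlap, at 2.980 to 4.13 without a partner and 2.07 to 2.978 with one. The 5 library 1 only peaks closest to a library 2 peak lie 4 to 8 bp from it. The closest, chr3:126998927-126999140, had 18 fragments and 2.98-fold enrichment, and chr1:184034004-184034181 had 24 fragments and 4.13-fold. On the other side, chr17:88473882-88474051 shares 3 bp with a library 2 peak and had 16 fragments and 2.97-fold, and chr5:125658298-125658497 shares 5 bp and had 22 fragments and 2.81-fold. In all, 6 library 1 only peaks lie within 10 bp of a library 2 peak, and 10 partnered peaks share 10 bp or less.

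A group of 1601 library 1 only peaks (8.89%) lies within 500 bp of a library 2 peak. Of these, 1397 (87.3%) also lie within 500 bp of a partnered library 1 peak, against 1.21% of the other 16416, so most of this group sits beside a site that both lists hold. Their median pileup, 22 fragments, equals that of the rest, and their median enrichment was 3.50-fold against 3.67-fold. A RefSeq start lay within 1 kb of 34.8% of them and of 20.6% of the rest. The median distance from a library 1 only peak to the nearest library 2 peak was 15615 bp.

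The 12 library 1 only peaks with the highest fold enrichment ranged from 8.73-fold to 10.5-fold. The highest, chr15:85680805-85681264, had 64 fragments and lies 1.18 kb from a library 2 peak and 2.41 kb from a reproducible region, upstream of the start of Lncppara, a long noncoding RNA gene. The next, chr15:56742739-56743059, had 59 fragments at 10.2-fold and lies 64.6 kb from a library 2 peak, far from any coding start. A peak at chr5:113862980-113863385, inside Coro1c, which encodes an actin-binding coronin, had 56 fragments at 9.97-fold.

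Of the other 9, 3 lie within 5 kb of a coding start and belong to Plxnb1, Trmt44 and Nr2f1, which are described with the genes. The peaks at chr4:57783430-57783768 inside Pakap (8.75-fold) and at chr7:139139865-139140429 inside Stk32c, a kinase gene (8.73-fold), lie 61.6 and 48.2 kb from the nearest coding start. The peak at chr8:46539703-46539978 (9.38-fold) lies 12.2 kb upstream of Cenpu, which encodes a centromere protein. Those at chr2:47531704-47532127 (9.53-fold), chr1:144299655-144299930 (9.27-fold) and chr4:69538221-69538473 (8.75-fold) lie over 100 kb from a coding start.

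Pileup picked other peaks. The highest, chr17:39848440-39848800, had 217 fragments, but its local background was 169 fragments and its enrichment 1.28-fold. It was followed by chr10:3114893-3115071 with 178 fragments at 1.50-fold and chr6:3201425-3201593 with 177 fragments at 1.74-fold. Of the 12 library 1 only peaks with a pileup over 80, 11 had an enrichment under 2-fold. The exception, chr8:19703217-19703520, had 87 fragments at 3.69-fold. High pileup without a partner thus went with high local background, in contrast to the peaks chosen by fold.

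A local background of 10 fragments or more was found at 200 library 1 only peaks (1.11%), with a median pileup of 33 fragments and a median enrichment of 2.50-fold. The same background was found at 1.61% of partnered peaks outside the regions and 1.37% of those inside. A stretch of chromosome 6 from 47 to 48 Mb held 22 library 1 only peaks with pileups of 21 to 106 fragments and enrichments of 1.57-fold to 5.60-fold. It was picked out after its values were seen. The 3 widest library 1 only peaks were not strong: chr8:4677451-4678759 (1309 bp) had 28 fragments, chr12:5060372-5061520 (1149 bp) had 27, and chr8:90886773-90887912 (1140 bp), inside the chromatin remodeller gene Chd9, had 29.

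Library 1 only peaks were spread over all 19 autosomes in nearly equal shares. The share of library 1 peaks without a partner was lowest on chromosome 3, at 41.01%, and highest on chromosome 17, at 45.9%, with a mean of 43.4 ± 1.24% (SD, n = 19 chromosomes). Their median pileup was 22 or 23 fragments on every autosome. Density varied more, with 7.47 ± 1.11 peaks per Mb (SD, n = 19), from 5.84 on chromosome 14 to 10.2 on chromosome 11. Per coding gene, it ranged from 0.533 on chromosome 7 to 1.27 on chromosome 12.

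Chromosomes dense in reproducible regions were also dense in library 1 only peaks. Over the 19 chromosomes the Spearman rank correlation of the densities was 0.907 and the Pearson correlation 0.903. With coding genes per Mb, the values were 0.767 and 0.746. These are descriptions over chromosomes that share both libraries and their mappable sequence.

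**Figure D3:**
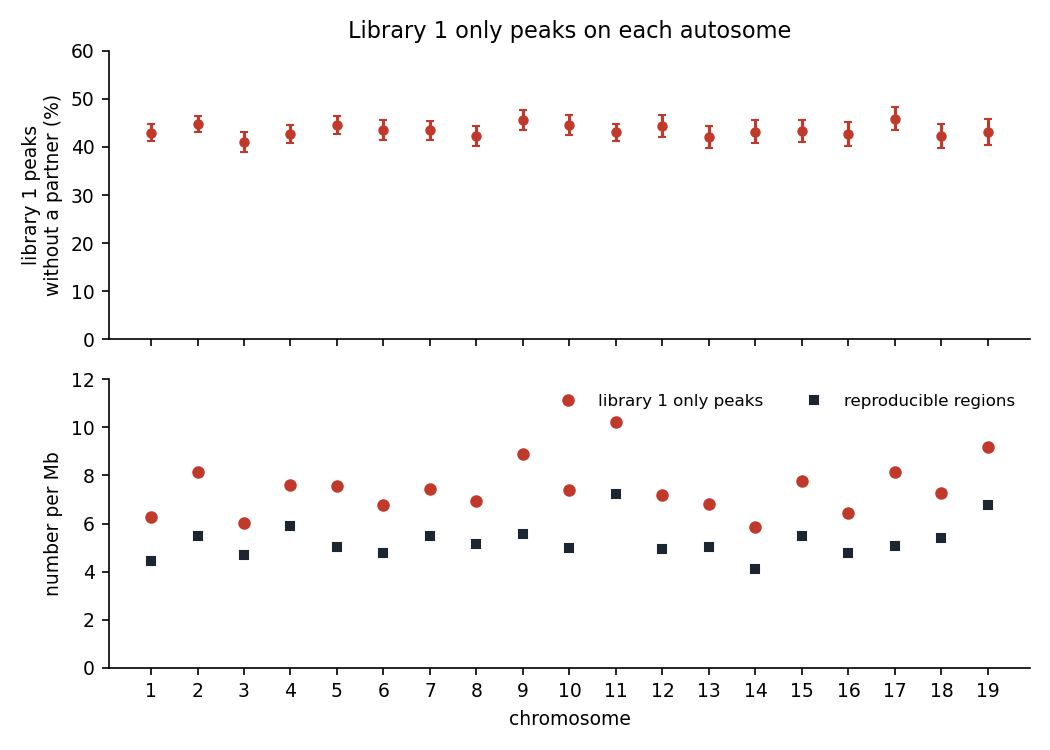
Library 1 only peaks on each autosome: the percentage of library 1 peaks without a partner with Wilson 95% intervals (top), and the number per Mb beside reproducible regions (bottom). Shares lie between 41.01% and 45.9%, while density peaks on chromosome 11, at 10.2 per Mb.

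Within chromosomes, library 1 only peaks occurred mostly singly. Of the windows of 100 kb that hold any, 10061 in number, 5548 held 1 and 355 held 5 or more. The median distance between the summit of a library 1 only peak and the nearest other was 23998 bp. The fullest windows lay at glial genes and at several others. The window chr16:91200001-91300000, with the oligodendrocyte factor genes Olig1 and Olig2, held 11 library 1 only peaks among 23 library 1 peaks, and 7 reproducible regions. The window chr2:28500001-28600000, with Cel, Gbgt1, Gtf3c5 and Ralgds, held 11 of 17, with 3 regions. The window chr3:87900001-88000000 held 10 of 15 and 3 regions, and its genes include Nes, which encodes the progenitor filament nestin, and Bcan, which encodes the matrix protein brevican. A further 9 windows tied at 9, among them those of Zeb2, Nfia and Per1 and a cluster of histone genes on chromosome 13.

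Most library 1 only peaks lay away from reproducible regions. The median distance from the summit to the nearest region was 34524 bp, with a middle range of 9496 to 94071 bp. A region lay within 1 kb of 1289 peaks (7.15%), within 5 kb of 3190 (17.7%, 95% interval 17.2 to 18.3%) and within 25 kb of 7656 (42.5%), and 4246 (23.6%) lay more than 100 kb from every region. Partnered peaks outside the regions gave 6.42%, 17.7% and 43.8% at the same distances, and library 2 only peaks 8.83%, 18.9% and 42.1%. Nearness to a region thus hardly differed between peaks with and without a partner, once those in regions were set aside.

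Peak height was level across distances. The median pileup was 22 fragments in each of 5 distance classes from within 1 kb of a region to over 100 kb from one. Median enrichment was 3.47-fold within 1 kb and 3.67-fold over 100 kb, beside median local backgrounds of 5.32 and 4.90 fragments. Peaks within 1 kb of a region were more often at promoters: 29.5% of them had a RefSeq start within 1 kb, against 16.6% of those 1 to 5 kb from a region and 21.1% of those over 100 kb away.

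By the transcripts that the authors' region table lists, 3034 library 1 only peaks (16.8%) had a start within 1 kb and 7856 (43.6%) lay inside a transcript. The matching shares were 16.0% and 43.5% for partnered peaks outside the regions and 23.6% and 56.3% for those inside. That table lists transcripts near the regions only, which favours peaks close to them. RefSeq starts, which do not depend on the regions, were therefore used as well, for the 17379 library 1 only peaks on the 18 autosomes with such starts.

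By RefSeq, 3801 library 1 only peaks (21.9%, 95% interval 21.3 to 22.5%) had a start within 1 kb. The share was 20.9% for partnered peaks outside the regions, 18.8% for those in a region and 18.4% for library 2 only peaks. Within 250 bp the shares were 13.6%, 13.2%, 11.7% and 8.31% in the same order. At the other end, 39.7% of library 1 only peaks lay over 25 kb from every RefSeq start, and 57.7% lay inside a coding gene. The order of library 1 only peaks and peaks in regions thus depended on the transcript set used, since the authors' list put peaks in regions higher.

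Summits of library 1 only peaks within 1 kb of a start were centred on it. Of these, 1830 lay upstream, 1964 downstream and 7 exactly at it, with a median position of 8 bp downstream. Peaks in a region had 56.3% of their summits upstream, and a median position of −30 bp. Among library 1 only peaks, those within 250 bp of a start were wider (median 257 bp against 219 bp for those over 25 kb away) with the same median pileup of 22 fragments, and the lowest peaks were near starts more often: 24.5% of those with 13 to 18 fragments, against 20.0% of those with 36 or more.

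**Figure D4:**
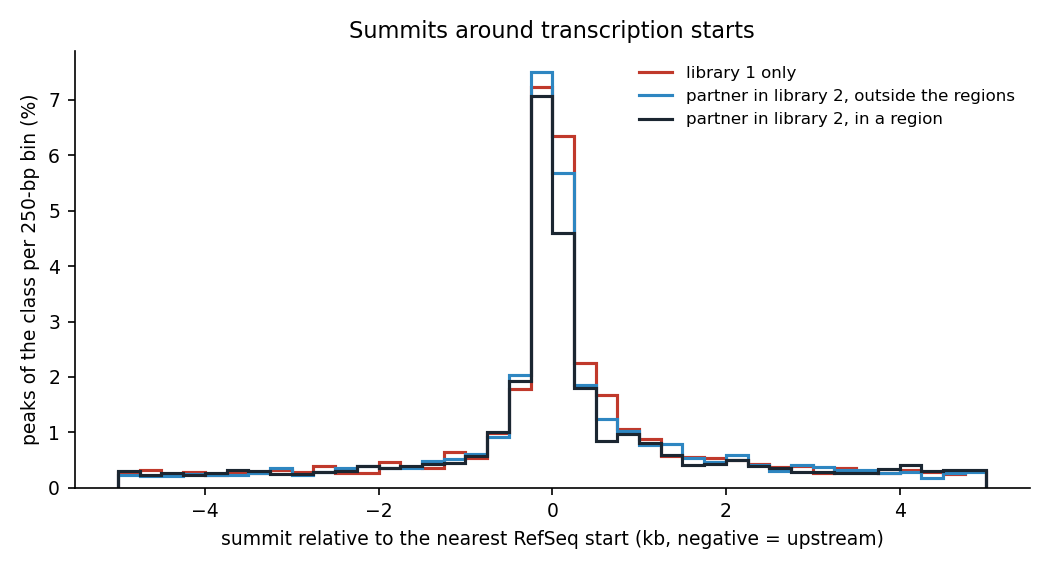
Summits around the nearest RefSeq start, as a percentage of each class per 250-bp bin, for library 1 only peaks (red) and both partnered classes (blue and black). All 3 classes peak at the start, where the bin just upstream holds 7.23%, 7.51% and 7.06%, and the bin just downstream 6.35%, 5.68% and 4.59%.

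In promoter sequence, the STAT palindrome was less frequent at library 1 only summits than at summits in reproducible regions, with intervals that do not overlap and no test. The 300-base windows of RefSeq promoters (250 bases before to 50 after the start) held a library 1 only summit in 2012 cases of 31396. TTCNNNGAA, which reads the same on both strands, was present in 140 of these windows (6.96%, 95% interval 5.93 to 8.15%) and in 8.35% of all windows. It was present in 9.52% of windows with a partnered summit outside the regions and in 278 of 1327 windows (20.9%, 18.8 to 23.2%) with a summit in a reproducible region. For the stricter TTCCNGGAA, which is a subset of it, the shares were 1.09% for library 1 only peaks, 1.18% for all windows, 1.38% outside the regions and 8.82% inside.

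The windows with a library 1 only summit were rich in GC, with a median GC content of 62.3% and 23 CpG against 53.0% and 7 in all windows. Among windows of 60% GC or more, TTCNNNGAA was in 3.61% of those with a library 1 only summit, 4.22% of all and 16.5% of those with a summit in a region. Below 60% GC the shares were 12.1%, 10.1% and 26.1%. The distance from the summit to the centre of the nearest match had a median of 53.5 bp in the 140 windows of library 1 only peaks and 25.0 bp in the 278 of peaks in regions. Within library 1 only peaks, promoter windows of coding genes with the 428 strongest by fold held the motif in 9.35% of cases (6.94 to 12.5%), against 6.56% (4.61 to 9.26%), 6.19% (4.26 to 8.92%) and 4.65% (3.03 to 7.07%) in weaker groups of like size, from the weakest up. These shares follow no steady order with fold, and the intervals overlap.

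For the other motifs, shares at library 1 only summits were closer to those at summits in regions. The ETS motif CCGGAAGT, searched on both strands, was in 12.7% of windows with a library 1 only summit, 12.8% with a summit in a region and 3.95% of all. The GC box GGGCGG, on both strands, was in 63.7%, 61.9% and 35.98%. Among windows of 60% GC or more it was in 79.8%, 80% and 80.6%, with no excess over all windows. Below 60% GC the excess remained, at 38.9% with a library 1 only summit against 16.9% of all. Windows of regions were above all windows there too. In windows of any GC content, the cyclic AMP response element TGACGTCA was in 4.72%, 4.37% and 1.83%. The E-box CACGTG was in 11.1%, 12.9% and 7.14%. CCAAT, on both strands, stood near the level of all windows at 38.6%, 36.4% and 37.3%, and the AP-1 motif TGANTCA was below it at 3.88%, 5.43% and 7.84%. Among windows of 60% GC or more, AP-1 was in 2.54% with a library 1 only summit, 4.51% with a summit in a region and 3.41% of all. Windows of regions were thus not below all windows in that GC class. Below 60% GC, AP-1 stayed below all windows in both summit classes, at 5.93% and 6.48% against 9.75%, with the same difference in GC content. ETS stayed above all windows among those of 60% GC or more, at 12.5% and 13.4% against 6.98%. In that class the E-box was in 12.05% and 13.7% against 10.8%. The interval of the library 1 only share holds the share of all windows. TGACGTCA was in 4.43% and 4.93% against 3.07% there. Below 60% GC the E-box was in 9.596% and 11.99% against 5.58%, and TGACGTCA in 5.18% and 3.73% against 1.297%. Median GC content there was 54.7% at library 1 only summits against 48.7% in all windows. A match is a stretch of letters and not a measured site.

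**Figure D5:**
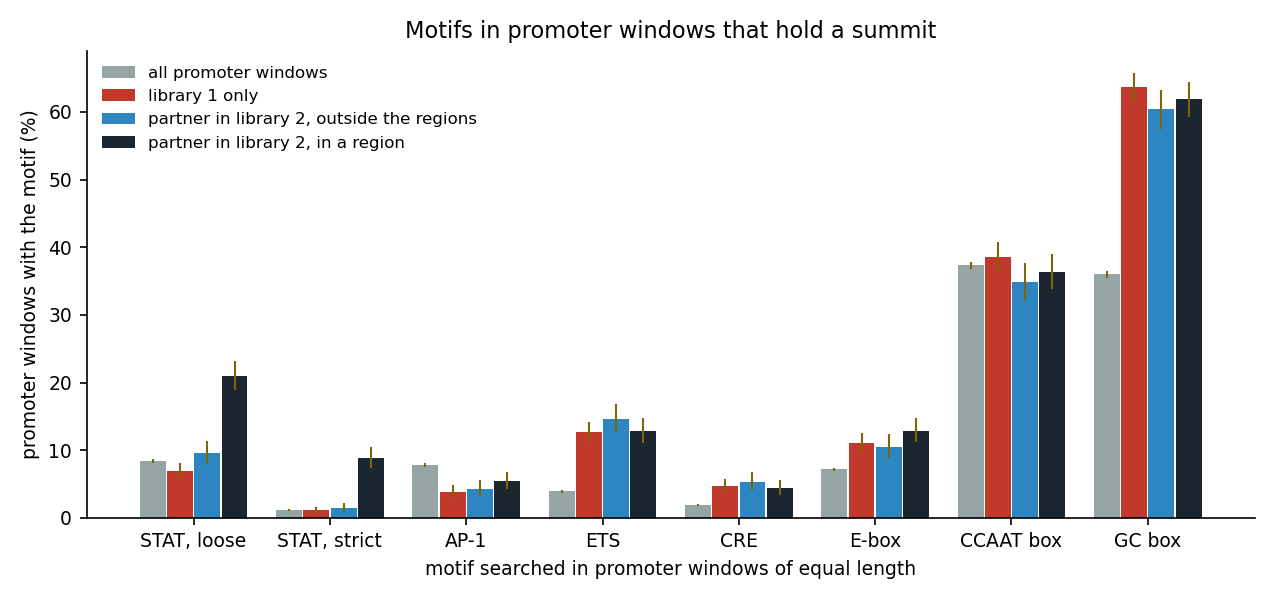
Percentage of RefSeq promoter windows with each of 8 motifs, for all windows (grey) and windows with a summit of library 1 only peaks (red) or of partnered peaks outside (blue) or inside (black) the regions, with Wilson 95% intervals. The loose STAT motif stands at 6.96% in library 1 only windows and 20.9% in windows of the regions, while the bars for ETS and the GC box are close to each other in all 3 summit classes.

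At the level of genes, 4462 of 16456 coding genes with a RefSeq promoter entry had a library 1 only summit within 5 kb of a start (27.1%), and 3471 of these (21.1% of all) had no reproducible region within 5 kb, while 991 (6.02%) had both. Within 1 kb of a start, 3299 genes (20%) had a library 1 only summit. A region was found near 2878 genes (17.5%). Of the genes with a region, 34.4% also had a library 1 only peak, against 25.6% of the genes without. Most genes had a single such peak (3653), 125 had 3 or more, and Arhgef2, Ptbp1 and Zeb2 had the most, 5 each.

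The 25 genes with the strongest library 1 only peak within 5 kb of a start had enrichments of 7.35-fold to 9.32-fold. Of these, 17 had no reproducible region within 5 kb, beside 3471 of all 4462 genes with a library 1 only peak there. In 9 of the 25 the summit lay within 250 bp of the start. Of all library 1 only peaks, 5877 lay within 5 kb of a RefSeq start and 2362 within 250 bp. First of the 25 was Plxnb1, which encodes the semaphorin receptor plexin B1. Its peak chr9:109097911-109098261 (54 fragments, 9.32-fold) lies inside the gene, 2.65 kb from the start. The nearest RefSeq start is that of Gm7628, with the summit 293 bp upstream. The peak lies 0.754 kb from a library 2 peak but 59.0 kb from a region. Trmt44 followed with the peak whose promoter is printed above.

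Several of the 25 are regulators of transcription. Nr2f1, the gene of the nuclear receptor COUP-TFI, had chr13:78201579-78201869 at 8.92-fold, 2.84 kb upstream of its start and 0.803 kb from a region. Mga, which encodes a partner of MAX, had chr2:119898210-119898620 at 8.40-fold, 343.1 kb from any region. Nfic, a nuclear factor I gene, had chr10:81430651-81430872 at 8.22-fold. Zeb2, a zinc finger repressor gene needed for oligodendrocyte maturation, had chr2:45111006-45111384 at 8.05-fold, 0.965 kb upstream of its start and beside a region at the start.

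Others encode proteins of basic cell function, and many of their peaks lie at the start itself. Kif18a, a mitotic kinesin gene, had chr2:109280400-109280971 with the summit 4 bp downstream of the start, at 7.43-fold and 278.2 kb from a region. Chmp2a, of the ESCRT-III complex, had chr7:13034602-13034976 with the summit 7 bp downstream, at 7.44-fold. The same peak lies 2.86 kb from the start of Ube2m, a NEDD8 conjugating enzyme gene, and counts for both. H13, which encodes signal peptide peptidase, had chr2:152669337-152669683 at 8.09-fold, 17 bp downstream, and Manbal had chr2:157367499-157367777 at 8.19-fold, 30 bp downstream.

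The proapoptotic gene Bmf had a peak at 7.44-fold, 122 bp inside the gene, with a region at its start as well. Eps15l1, an endocytosis gene, had 7.35-fold at 94 bp upstream, Cdc5l, a splicing factor gene, 7.59-fold at 422 bp upstream, and Rnf169, a ubiquitin ligase gene of the DNA damage response, 7.87-fold at 729 bp downstream. Rtn4, which encodes the myelin-associated inhibitor Nogo, had 7.35-fold at 793 bp downstream, 0.505 kb from a region. The growth factor gene Fgf18 had 8.05-fold at 1.04 kb downstream and the phosphatase gene Dusp22 7.70-fold at 1.15 kb upstream. Zcwpw1 (8.31-fold), Marchf6 (7.35-fold), Mrpl50 (7.35-fold), Nup155 and Pcnp complete the list with Gm46319 and Mideas, which share 1 peak at 8.08-fold.

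Gene lists were counted at either end of the gene, for 20661 coding genes on the autosomes, of which 6452 (31.2%) had a library 1 only summit within 5 kb and 4719 (22.8%) had one and no region there. A region lay within 5 kb of an end of 20.6% of these genes. Of the genes with a region, 40.8% had a library 1 only peak, against 28.8% of the others. Lists high in library 1 only peaks were mostly high in regions too. A region lay near 61.5% of astrocyte markers, 60.5% of immediate early genes, 57.9% of lineage factors and 53.6% of progenitor markers. The share was 40.3% for ribosomal protein, 38.6% for JAK-STAT and gp130 and 37.2% for mitochondrial ribosome genes. It was 23.5% for myelin genes, 16% for microglia, 15.4% for endothelial and fibroblast and 12.5% for neuron markers.

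Of 34 known STAT3 target genes, 23 (67.6%) had a library 1 only peak, and 17 of these had a region too, as did 79.4% of the list. Nfkbiz, which encodes a nuclear IκB protein, had chr16:55814017-55814253 at 5.07-fold, 6.32 kb from a region. Socs1, a feedback inhibitor of JAK kinases, had a peak at 4.90-fold, 0.372 kb from a region, and the repressor gene Bcl6 had one at 4.55-fold, 2.32 kb from a region. Ccnd1, which encodes cyclin D1, had one at 4.41-fold, 0.982 kb from a region. Without peaks that have a library 2 peak within 500 bp, the share was 50%, beside 28.2% of all coding genes.

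Immediate early genes had a library 1 only peak in 27 of 38 cases (71.1%). In 9 of the 38 there was such a peak and no region, beside 22.8% of all coding genes. Nr4a3, an orphan nuclear receptor gene, had the strongest, chr4:48043369-48043753, with 54 fragments at 6.59-fold. It lies 0.205 kb from a library 2 peak and 61.9 kb from a region. Klf10 (5.49-fold), Ier3 (5.22-fold) and Klf2 (4.37-fold) followed. Klf2 was the farthest from a region among these 3, at 22.4 kb.

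JAK-STAT and gp130 signalling genes numbered 44, of which 17 (38.6%) had such a peak. In 11 of the 44 there was such a peak and no region, beside 22.8% of all coding genes. Il6ra, which encodes the interleukin-6 receptor subunit, had chr3:89913460-89913666 with 36 fragments at 6.47-fold, 379 bp upstream of its start and 148.9 kb from a region. Socs4 had 6.04-fold at 826 bp upstream, and Ifnar2, an interferon receptor gene, 5.07-fold inside the gene. The list stood close to the share of all coding genes, with a 95% interval of 25.7 to 53.4%.

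Oligodendrocyte lineage transcription factor genes had the highest share of the 13 lists, 30 of 38 (78.9%, 63.7 to 88.9%). In 13 of the 38 there was such a peak and no region, beside 22.8% of all coding genes. The rank was lost among peaks with a −log10 q of at least 5, where the share was 34.2%, beside 17.7% of all coding genes. Known STAT3 targets (44.1%), progenitor markers (42.9%), immediate early genes (42.1%) and astrocyte markers (38.5%) stood higher there. At equal numbers of peaks the lineage factors were again highest, at 23.7%, with astrocyte markers next at 23.1%. Nfib, a nuclear factor I gene, had chr4:82511587-82511874 at 5.39-fold. Tcf12, an E-protein gene, had a peak of 776 bp at 5.07-fold whose summit lies 13 bp inside the gene from its start, and Sox8 had 5.04-fold. Myrf and Sox10, which drive myelin genes, were among the 13 with a peak and no region within 5 kb.

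Progenitor marker genes had such a peak in 19 of 28 cases (67.9%). Bcan had 5 peaks, the strongest chr3:88001688-88001987 at 6.25-fold, 0.082 kb from a library 2 peak. Pdgfra, the PDGF receptor gene of progenitors, had chr5:75150612-75151073 at 5.42-fold, 0.235 kb from a region, and Tnr and Cacng4 had 5.42-fold and 5.27-fold. Myelin and mature oligodendrocyte genes stood near the share of all genes, with 10 of 34 (29.4%). In 9 of the 34 there was such a peak and no region, beside 22.8% of all coding genes. The 10 include Tspan2 (5.95-fold), Car2 (5.81-fold), Qdpr (4.90-fold) and Ermn (4.41-fold).

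Markers of other cell types gave a wide range of shares. Astrocyte markers had a library 1 only peak in 13 of 26 cases (50%), 11 of them beside a region. Atp1b2 had 6.30-fold, Aqp4 4.81-fold, Sox9 4.55-fold and Slc1a3, a glutamate transporter gene, 4.52-fold. Neuron markers had 5 of 24 (20.8%), with Map2 at 4.85-fold, Slc17a7 at 4.49-fold, Dlx2 at 3.50-fold and Tbr1 at 2.80-fold, none with a region within 5 kb. Microglia markers had 3 of 25 (12%), namely Cd68 at 6.30-fold, Sall1 at 2.88-fold and Fcgr3 at 2.35-fold, and endothelial and fibroblast markers 4 of 26 (15.4%), namely Pdgfra, Rgs5 at 5.25-fold, Cspg4 at 3.05-fold and Tagln at 2.79-fold. Pdgfra and Cspg4 are progenitor markers as well.

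Ribosomal protein genes had such a peak in 38 of 77 cases (49.4%). In 24 of the 77 there was such a peak and no region, beside 22.8% of all coding genes. Rps21 led at 7.29-fold, with the summit 42 bp upstream of its start. Rpl35 (5.65-fold), Rps27l (5.03-fold) and Rpl3l (4.90-fold) followed. Mitochondrial ribosome genes had 31 of 78 (39.7%), with Mrpl50, Mrps5 (5.70-fold), Mrpl18 (5.27-fold) and Mrps15 (5.26-fold) at the top. Olfactory receptor genes, which act mainly in olfactory neurons, had 7 of 1100 (0.636%), the strongest at Olfr90 (4.65-fold), Olfr9 (4.13-fold), Olfr1344 (4.12-fold) and Olfr556 (3.59-fold). Library 1 only peaks left after the cut to the size of the library 2 list are a part of the full set, so no share could rise. The shares were then 10.9% of all coding genes, 17.65% of the known STAT3 targets and 23.7% of the lineage factors.

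A further 8 genes were set for individual description. Within 25 kb of its starts, Socs3, a feedback inhibitor of STAT3 signalling, had 6 of them and 8 regions, and Stat3 had 2 and 3. Fos had 6 with 5 regions, Junb 3 with 6, Bcl3 2 with 2, Gfap 2 with 1, Mbp 1 with 1 and Olig2 6 with 3. Within 5 kb the numbers of library 1 only peaks were 0 at Socs3 and Mbp, 1 at Stat3 and Gfap, 2 at Junb and Bcl3, 3 at Fos and 4 at Olig2. The nearest to a start was chr12:85475493-85475727 at Fos, 0.657 kb away, with 21 fragments at 3.28-fold.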

How the data were processed

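The members, gene lists and measures were chosen with earlier results of these data known. The submitters' processing notes name CASAVA 1.8, Bowtie2, MACS2 and the build GRCm38.p3; options are not given in the sources used here. Each ChIP library has a peak list deposited by the authors, and both share 1 region table. Per the file headers, the pileup signal counts fragments at the summit, and the fold enrichment is a ratio over local background. In the deposited lists a pair of damaged headers hold, by their values, the −log10 p and −log10 q. The p-value column of the deposited region table holds the IDR; its pileup and fold columns, deposited by the authors, hold a single score in 2 copies and were not used. Read numbers are not given in the sources used here.

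Local background was computed from the pileup and fold. Overlap was 1 bp or more. Distances run from the summit to a region's edge or to a start, and positions are 1-based. RefSeq tables of GRCm38.p6 gave gene ends and promoter sequences, the latter on 18 of the autosomes. Gene lists were counted at either end of a gene because some of their genes have no promoter entry. Intervals are Wilson 95%. Software was Python 3.11.15 with scipy 1.17.1, pandas 2.3.3 and numpy 2.4.6, and matplotlib 3.10.9 for figures. The overlap step was tested on simulated data, where all 2000 peaks planted without a partner among 5000 were found.

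Named were the 12 highest by fold and by pileup, the 3 widest, the 5 nearest each side of the rule, the fullest windows (planned as 5, with 9 more tied), the 25 genes with the strongest peak within 5 kb, up to 4 genes per list, and 8 single genes (Olig2, Mbp, Gfap, Stat3, Socs3, Bcl3, Fos and Junb). Of the 12 highest by pileup, 4 are named in the text. Some items that the rule names are not reported here. Alternatives were a 50% overlap, a 500 bp gap, a −log10 q of 5, equal numbers of peaks, X and Y added, an IDR of 0.01, midpoints, a 5 kb window and, chosen after seeing the data, a local background under 10 fragments.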

Additional observations from a re-analysis of the deposited data

Results flagged for a closer look

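Peaks outside the 19 autosomes were left out of the comparisons above. On X and Y, 287 library 1 peaks had no library 2 partner, 272 of 650 on X (41.8%) and 15 of 28 on Y. On unplaced scaffolds and patches, 26 of 58 library 1 peaks had none. Library 2 had 14 peaks on the mitochondrial genome, where library 1 had 0. Library 2 also had 60 peaks on the scaffold JH584304.1, where library 1 had 6. No control library was analysed beside these counts.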

How the results depend on the processing

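No paired analysis was possible because the rule needs both ChIP lists, no test was made and the inputs were not analysed; for the same reason no replicate could be left out. Of 54 values under alternatives, 27 moved by less than their interval (counts by less than 1.5 times); the cause of the other moves was not tested beyond the selection itself. With peaks under 50% covered counted as members, the median pileup was 23 fragments, fold 3.72 and width 239 bp; 21.3% lay within 5 kb of a region, 18.45% within 1 kb of a listed start and 23.3% of a RefSeq start. Without peaks within 500 bp of a library 2 peak, these 3 shares were 13.6%, 15.0% and 20.6%. With a −log10 q of at least 5, 9564 remained, with medians of 26 fragments, 4.20-fold and 238 bp and shares of 16.2%, 14.9% and 19.5%. At equal numbers of peaks, 5727 remained, with medians of 29 fragments, 4.65-fold and 253 bp, shares of 16.6%, 14.7% and 18.7%, and the STAT motif in 8.23% of promoter windows. With regions at an IDR of 0.01, 14.7% lay within 5 kb. A 5 kb window gave 26.9% for listed and 33.8% for RefSeq starts. Adding X and Y (18304 peaks) or keeping local backgrounds under 10 fragments (17817) moved none of the 8 measures past its interval. Of the 13 gene lists, 8 stood above all coding genes and 4 below them under each of 6 member sets. These sets overlap and come from the same lists, so this is no independent check. The count also disregards intervals. In the main set those of the JAK-STAT, mitochondrial ribosome, neuron and endothelial lists hold the share of all coding genes. The 25 strongest genes were chosen for high fold, so sets that add peaks or cut by strength or background could hardly remove them. All 25 kept their peak under those 5 sets, and 22 kept it without peaks near library 2 peaks. Depth is known only through the background, and peaks below each list's threshold are not seen.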
